A study of Mus musculus with 12 samples.

Results

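The TAM receptors Axl, Tyro3 and Mertk and their ligands Gas6 and Pros1 were measured in mouse fibroblasts. They were found by gene name in the deposited table of raw counts, where 5 of 54447 rows carried these names, and all 5 genes passed the filter on low counts. RNA-seq had been run on NIH3T3 cells, an established line of mouse embryo fibroblasts, that carried a doxycycline (dox) inducible construct. The protein N-VEGF comes from the N-terminus of the long VEGF form, and the comparison asks whether its presence, with or without a nuclear signal, changes transcription at normal oxygen.

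There were 4 groups of 3 libraries. The N-VEGF cells carried His-tagged N-VEGF behind the Tet-on promoter of a lentiviral vector. The NLS-N-VEGF cells carried the same insert with the nuclear localization signal of the Cas9 gene added, and each population was sequenced without and with dox. All groups, the no dox controls included, carried a lentiviral insert and had been transduced, so a cell without any construct was not among the libraries compared here, and neither was a cell without an insert treated with dox. The effect of dox itself and that of the induced protein therefore cannot be told apart within 1 population. Nothing in the labels says that the 3 libraries of a group came from separate cultures, so the p-values measure the spread between these libraries, which may be technical. The library labels end in 1 of 2 suffixes, _120519 and _290419, whose meaning the labels do not state. Each group had libraries 1 and 2 with suffix _120519 and a library 2 with suffix _290419.

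The libraries held 13549331 to 18982127 counted reads and 19976 to 22889 genes with a count, so that 3 counts, the limit that a count of 0 allows, corresponded to 0.158 to 0.221 CPM, read counts scaled to a common library size. The row of the construct insert had 5 to 12 counts in the 6 libraries without dox and 35 to 268 counts in the 6 with dox, in the direction the labels give. Between the suffixes 6207 of 13608 genes tested differed, more than between any 2 groups. All 8 fibroblast markers passed the filter and summed to 10900 to 13840 CPM, whereas 8 macrophage and blood markers summed to 8.75 to 14.5 CPM, 6 endothelial markers to 2.93 to 5.0 CPM and 6 epithelial markers to 1.60 to 3.61 CPM. Of the 8 macrophage markers Csf1r had 65 to 175 counts, Cd68 39 to 91 and Aif1 3 to 15, Ptprc had at most 5, Adgre1 and Spi1 at most 2 and Tyrobp 0 in all 12 libraries. Itgam had at most 1 count, but 68.67% of its exonic bases overlap Gm49368 on the same strand. In bulk RNA, fewer cells of a kind and less RNA per cell cannot be told apart.

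TAM receptors are receptor tyrosine kinases that recognise phosphatidylserine, a lipid that dying cells turn to their outer face, through bridging proteins that hold the lipid at one end and the receptor at the other. Gas6 binds all 3 receptors, while protein S, the product of Pros1, binds Tyro3 and Mertk but not Axl. Both ligands need vitamin K dependent carboxylation of their Gla domain, the receptors signal through PI3K and Akt towards survival, and Gas6 was first cloned from growth-arrested NIH3T3 cells.

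The genes lie at chr7:25757273-25788705 on the minus strand for Axl, chr2:119797733-119818104 on the plus strand for Tyro3, chr2:128698956-128802894 on the plus strand for Mertk, chr8:13465374-13494490 on the minus strand for Gas6 and chr16:62854307-62929346 on the plus strand for Pros1, all in build GRCm38. Counts were summed over the exons of a gene, so each value covers its coding exons and UTRs together. Of the exonic bases of Gas6, 1.33% overlap those of Tmem255b on the opposite strand. The counting strand is not given in the sources used here, but Tmem255b had at most 1 count in any library, and the exons of the other 4 genes overlap no other gene.

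The 250 bases before the RefSeq start of Axl, Gas6 and Mertk are shown because the results turn on these members. The sequences are from RefSeq on GRCm38.p6, which held all 5 members, and are written from 5′ to 3′ along the gene, with chr7:25788734-25788983 on the minus strand for Axl, chr8:13494536-13494785 on the minus strand for Gas6 and chr2:128698665-128698914 on the plus strand for Mertk. Capitals mark matches, on either strand, to the GC box GGGCGG and the TEAD site GGAATG.
Axl: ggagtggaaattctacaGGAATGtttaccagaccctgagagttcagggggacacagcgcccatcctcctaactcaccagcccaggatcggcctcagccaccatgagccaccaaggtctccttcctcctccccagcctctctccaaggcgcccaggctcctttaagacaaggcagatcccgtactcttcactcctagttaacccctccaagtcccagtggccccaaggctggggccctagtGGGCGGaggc
Gas6: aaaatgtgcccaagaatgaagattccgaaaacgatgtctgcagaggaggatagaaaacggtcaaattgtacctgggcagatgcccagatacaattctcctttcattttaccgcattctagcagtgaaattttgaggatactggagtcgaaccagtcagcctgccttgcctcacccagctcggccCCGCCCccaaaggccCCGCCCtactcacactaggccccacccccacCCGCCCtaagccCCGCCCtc
Mertk: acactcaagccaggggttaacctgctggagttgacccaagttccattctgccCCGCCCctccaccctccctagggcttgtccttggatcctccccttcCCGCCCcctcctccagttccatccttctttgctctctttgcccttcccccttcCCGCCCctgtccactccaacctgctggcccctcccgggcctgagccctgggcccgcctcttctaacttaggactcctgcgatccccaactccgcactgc
The GC box matched once upstream of Axl, 3 times upstream of Mertk and 4 times upstream of Gas6, and 33.0% of 32536 windows of the same length in the table hold at least 1 match. The TEAD letters matched once, upstream of Axl, against 12.6% of windows. The hypoxia response cores ACGTG and GCGTG, held by 16.7% and 28.3% of windows, and the AP-1 letters TGACTCA, held by 4.5%, had no match in these 3 windows, and of the other 2 members only Tyro3 had 1 match, to GCGTG. The searched motifs do not overlap one another in these windows. A match is a run of letters and was not tested as a site.

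Axl was by far the highest of the 5 genes per length. Mean normalised CPM per kilobase of exon, a level that can be compared between genes, was 192 ± 16.3 (SD over 12 libraries) for Axl, 9.05 ± 0.963 for Pros1, 4.76 ± 0.461 for Tyro3, 2.67 ± 0.783 for Gas6 and 0.622 ± 0.209 for Mertk. Axl ranged from 168 to 215, Pros1 from 7.39 to 10.2 and Tyro3 from 3.92 to 5.58 CPM per kilobase. Gas6 ranged from 1.72 to 4.20 and Mertk from 0.247 to 0.887 CPM per kilobase. Only the ranges of Tyro3 and Gas6, neighbours in this order, overlapped, and the order of the means was the same with the longest coding transcript as the length. The level of Axl was above that of 98.5% of 13601 genes with a gene model that passed the filter, against 63.9% for Pros1, 47.8% for Tyro3, 36.0% for Gas6 and 16.9% for Mertk. In every library Axl made up 96.93% to 97.67% of the summed per-length signal of the 3 receptors, Tyro3 2.17% to 2.67% and Mertk 0.11% to 0.47%. Of the 2 ligands the one that does not bind Axl had the higher level, with a Pros1 to Gas6 ratio of 2.2 to 4.92 per length.

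**Figure D1:**
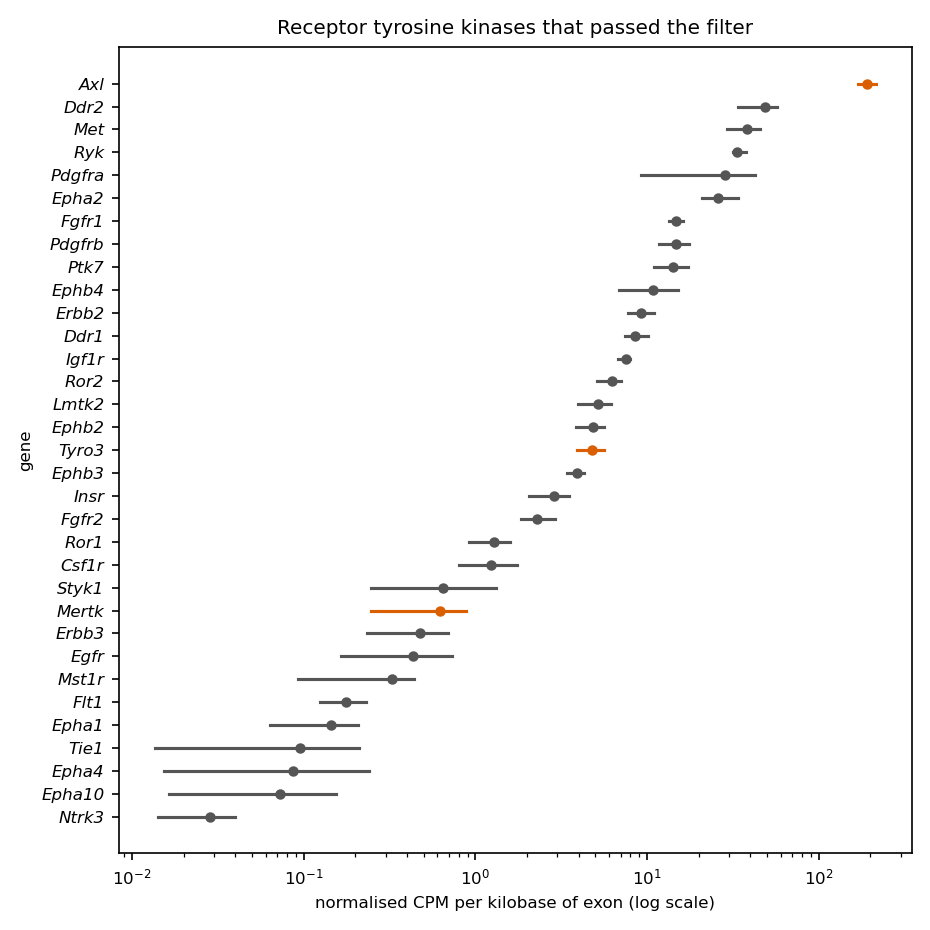
Mean normalised CPM per kilobase of exon on a log axis (points), with the lowest and highest of 12 libraries (lines), for the 33 of 58 receptor tyrosine kinases that passed the filter, the TAM receptors in orange. Axl lay at the top, and its lowest library, at 168, was above the highest library of Ddr2, at 57.3.

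Among 58 receptor tyrosine kinases Axl ranked 1, Tyro3 17 and Mertk 24 by level per length. The next receptor below Axl was Ddr2, a collagen receptor, at 48.7 CPM per kilobase, followed by Met, the receptor for hepatocyte growth factor, at 38.1. The lowest Axl library was higher than every library of every other receptor. Tyro3 lay between Ephb2 at 4.83 and Ephb3 at 3.91, both ephrin receptors, and its range of 3.92 to 5.58 overlapped the ranges of both. Mertk lay between Styk1 at 0.646 and Erbb3, a neuregulin receptor, at 0.477, again with overlapping ranges. Of the 58 receptors 25 did not pass the filter on low counts.

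**Figure D2:**
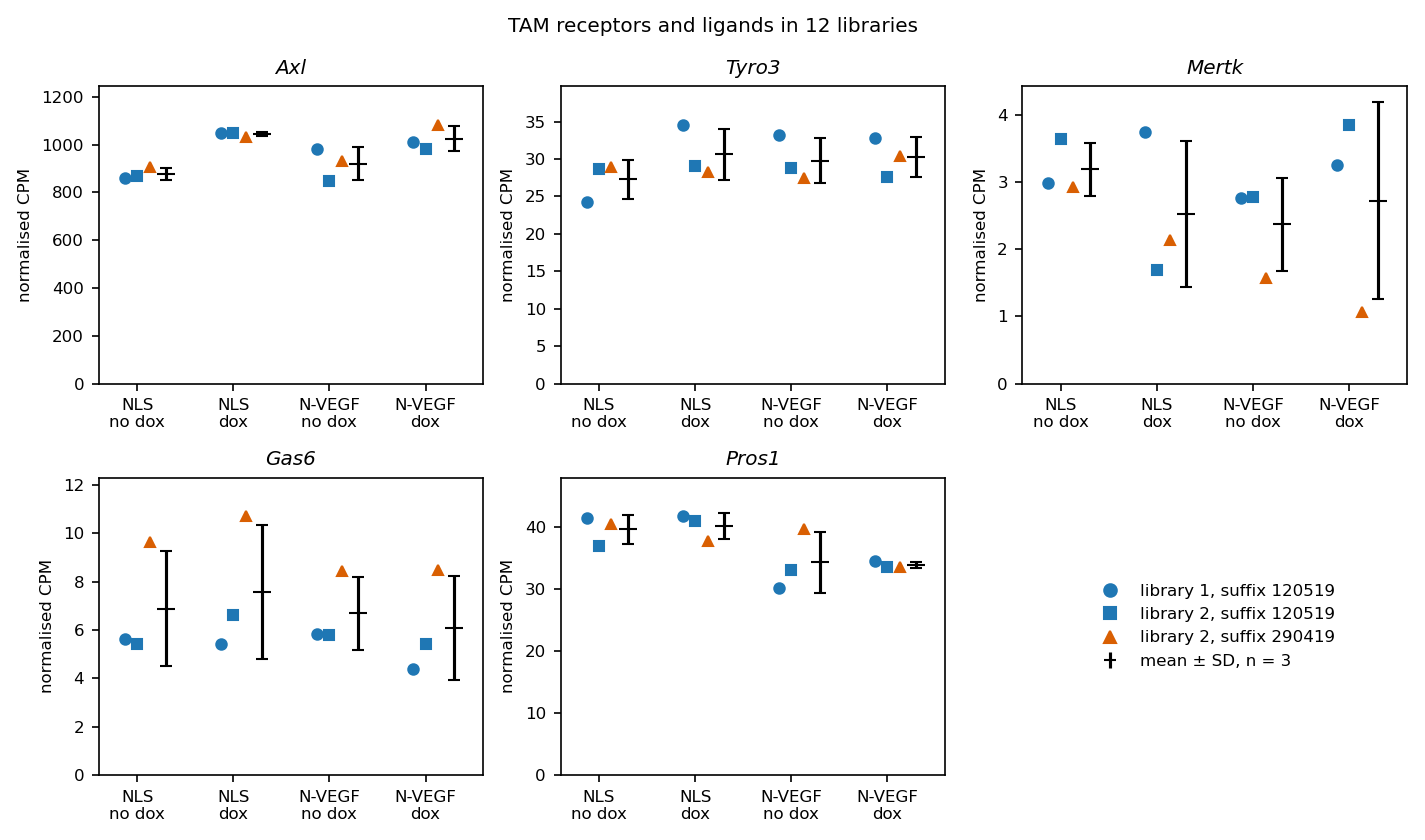
Normalised CPM of each gene in each library by group (circles and squares, libraries 1 and 2 of suffix _120519; triangles, library 2 of suffix _290419), with the group mean and SD of 3 libraries in black and every axis starting at 0. Axl in NLS-N-VEGF cells lay at 860.2 to 906 without dox and 1033 to 1049 with dox, and Gas6 was highest in the triangle of every group.

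Axl, the Gas6 receptor, was slightly higher with dox in both populations, by amounts that did not pass the test over all genes. Untreated NLS-N-VEGF libraries had 860.2, 868 and 906 normalised CPM, in the order 1_120519, 2_120519 and 2_290419 that is kept for the 5 genes within each group. The dox-treated libraries had 1047, 1049 and 1033 CPM. The groups did not overlap, and all 3 libraries with dox lay above all 3 without. The share of all genes whose groups or suffixes lie apart in this way was not counted, here or below. The means were 878 ± 24.3 and 1043 ± 8.41 CPM (SD, n = 3). In edgeR's quasi-likelihood test the difference was 0.25 on the log2 scale (SE 0.08, 95% interval 0.08 to 0.42), a fold of 1.19 with an adjusted p of 0.9998 and an unadjusted p of 0.00838. With the replicate label as a block, edgeR gave the same 0.25 with an unadjusted p of 0.00439 and an adjusted p of 0.3245.

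For N-VEGF cells the Axl values were 983, 846 and 932 CPM in untreated and 1009, 982 and 1083 CPM in dox-treated libraries. The means were 920.4 ± 69.2 and 1025 ± 52.6 CPM (SD, n = 3), and here the groups overlapped, since the 983 CPM of a no dox library stood just above the lowest library with dox. The difference in edgeR was 0.15 on the log2 scale (SE 0.08, 95% interval -0.02 to 0.33, adjusted p = 0.9999). Between libraries of the same label the log2 ratios of dox to no dox were 0.28, 0.27 and 0.19 in NLS-N-VEGF cells and 0.04, 0.21 and 0.22 in N-VEGF cells, higher with dox in 6 of 6 pairs. This count depends on matching libraries 1 and 2 of suffix _120519 by number, which the data did not bear out. With the other match, the 983 CPM without dox stands above the 982 CPM with dox. The share of all genes higher in 6 of 6 pairs was not counted. The difference between the 2 dox effects was 0.09 on the log2 scale (95% interval -0.15 to 0.34, adjusted p = 0.9999 in edgeR), and the interval leaves room for a difference of either sign. The populations were not induced alike. The insert row with dox stood at 2.57, 2.57 and 10.2 CPM in NLS-N-VEGF libraries and at 7.55, 8.07 and 17.9 CPM in N-VEGF libraries, higher in the latter at each label, so every comparison of the populations with dox is also one of unequal insert levels, and the part of these levels was not tested.

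Averaging both dox effects in 1 contrast, which was added after the data were seen, gave 0.20 for Axl on the log2 scale (SE 0.06, 95% interval 0.08 to 0.32). Its adjusted p was 1 in edgeR without the block, 0.1298 with it, 0.094 in DESeq2 and 0.0124 in DESeq2 with the block, so that 1 of the 4 tests called Axl. In this contrast edgeR called 0.0588% of 13608 genes without the block and 0.566% with it, and DESeq2 called 0.171% of 12286 genes with an adjusted p without the block and 0.887% of 11497 with it. Axl is on a gene list that the study drew from these same libraries, and its values here are not independent of that choice. For that list the paper required at least a doubling in either direction, with an adjusted p under 0.05 in DESeq2. It left out genes also induced by dox in N-VEGF cells. Here edgeR without the block gave Axl dox folds of 1.19 in NLS-N-VEGF cells and 1.11 in N-VEGF cells, and called neither.

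None of the 5 genes was called by edgeR in NLS-N-VEGF cells with against without dox, where 0.022% of 13608 genes were called, or 0.125% with the replicate block. None was called in N-VEGF cells, where 0.0367% of genes were called, or 0.11% with the block. The difference of the dox effects called 0% of genes in either fit, and the genes with an unadjusted p under 0.05 numbered 116 unblocked and 464 blocked. None of the 5 was called between the 2 populations either. With dox 0% of all genes were called there, or 0.0147% with the block, and genes with an unadjusted p under 0.05 numbered 160 unblocked and 621 blocked. Without dox 0% were called in both fits, and such genes numbered 82 and 499. DESeq2 called 0 genes in all for the difference of the dox effects and for either comparison of populations, or 4 with dox when blocked, and none of the 5 members in these 5 comparisons. With so few genes called in all, these counts say little about the 5 genes in particular.

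**Figure D3:**
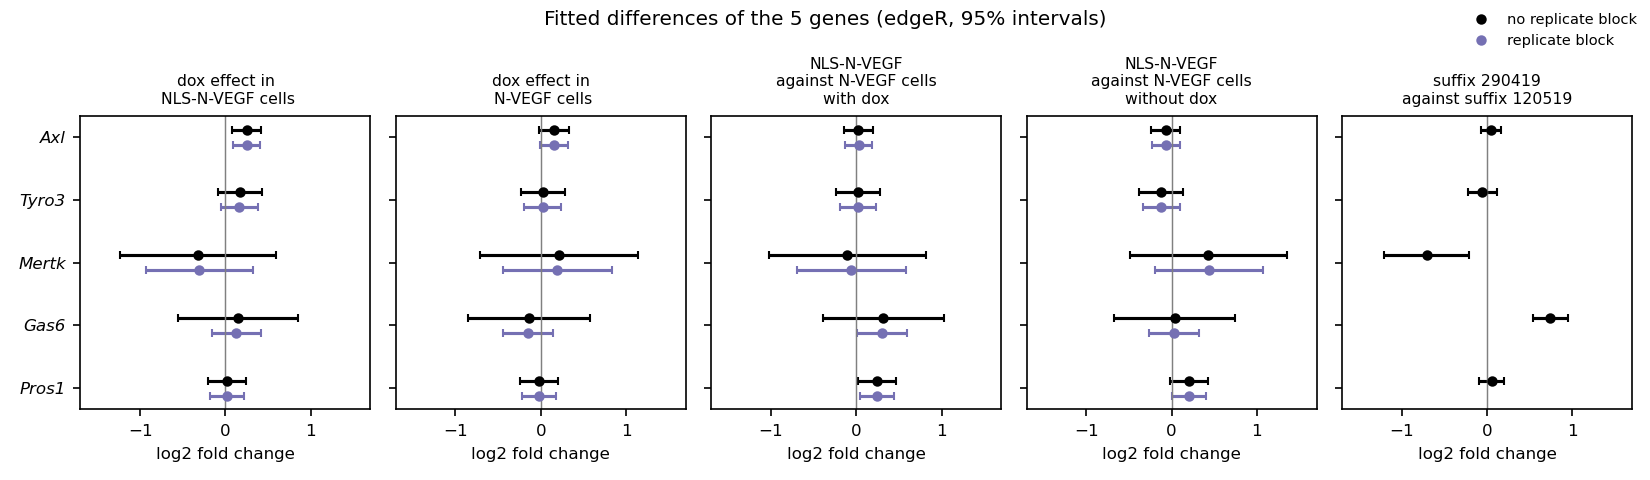
Log2 fold changes of the 5 genes with 95% intervals from edgeR, without (black) and with (purple) the replicate block, in 4 comparisons of groups and, without the block, between the suffixes. The Axl interval lay above 0 for dox in NLS-N-VEGF cells, 0.08 to 0.42 without the block, and the widest intervals were those of Mertk and Gas6.

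Tyro3, which like Mertk binds both ligands, stood at 24.3, 28.7 and 28.9 CPM in untreated NLS-N-VEGF libraries and at 34.6, 29.1 and 28.3 CPM in treated ones. The untreated N-VEGF libraries held 33.2, 28.7 and 27.4 CPM and the treated ones 32.8, 27.6 and 30.4 CPM of Tyro3. All 4 groups overlapped. The dox effects in edgeR were 0.17 (SE 0.12, 95% interval -0.09 to 0.43) in NLS-N-VEGF cells and 0.02 (SE 0.12, 95% interval -0.23 to 0.28) in N-VEGF cells on the log2 scale. The first came mostly from 1 pair, library 1 of suffix _120519, with a log2 ratio of 0.51 against 0.02 and -0.03 in the other two.

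Mertk, a receptor best known from macrophages and the retinal pigment epithelium, was counted at only 16 to 71 reads in a library. Its level in NLS-N-VEGF cells was 2.99, 3.64 and 2.92 CPM before and 3.75, 1.69 and 2.13 CPM after dox. Its level in N-VEGF cells was 2.76, 2.77 and 1.57 CPM before and 3.25, 3.85 and 1.07 CPM after dox. The spread within a group was widest in dox-treated N-VEGF cells, from 1.07 to 3.85 CPM, and treated and untreated libraries overlapped in both populations. The edgeR dox effects were -0.32 (95% interval -1.24 to 0.59) and 0.21 (95% interval -0.71 to 1.14) on the log2 scale. Without dox the 3 NLS-N-VEGF libraries lay above the 3 N-VEGF libraries, from 2.92 against 2.77 CPM at the nearest, with a log2 difference of 0.43 (SE 0.42, adjusted p = 0.9999 in edgeR).

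Gas6, the ligand of all 3 receptors, was measured at 5.63, 5.40 and 9.62 CPM in untreated NLS-N-VEGF libraries and at 5.40, 6.62 and 10.7 CPM after dox. The N-VEGF libraries gave 5.84, 5.78 and 8.44 CPM untreated and 4.37, 5.42 and 8.49 CPM treated. The third value, from suffix _290419, was the highest in each group, and the groups overlapped throughout. The dox effects were 0.14 (95% interval -0.56 to 0.85) and -0.14 (95% interval -0.85 to 0.57) on the log2 scale in edgeR. With the replicate block they were 0.13 (95% interval -0.16 to 0.42) and -0.15 (95% interval -0.45 to 0.15). Between the populations with dox, Gas6 was higher in NLS-N-VEGF cells in 3 of 3 same-labelled pairs, with log2 ratios of 0.31, 0.29 and 0.33. With libraries 1 and 2 of suffix _120519 matched the other way, NLS-N-VEGF library 1 at 5.40 CPM lay just below N-VEGF library 2 at 5.42 CPM. The fitted difference was 0.32 (95% interval -0.39 to 1.03) without the block and 0.31 (95% interval 0.01 to 0.60, adjusted p = 0.9919 in edgeR) with it. Without dox Gas6 was higher in 1 of 3 same-labelled pairs.

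Pros1, which encodes the ligand protein S, reached 41.5, 37.0 and 40.4 CPM in untreated NLS-N-VEGF libraries and 41.7, 41.0 and 37.7 CPM in treated ones. The N-VEGF libraries reached 30.2, 33.0 and 39.7 CPM untreated and 34.5, 33.5 and 33.6 CPM treated. Of the 5 genes it had the lowest unadjusted p between the 2 populations. With dox all 3 NLS-N-VEGF libraries lay above all 3 N-VEGF libraries, with means of 40.2 ± 2.15 and 33.9 ± 0.557 CPM (SD, n = 3). In edgeR the difference was 0.25 on the log2 scale (SE 0.10, 95% interval 0.02 to 0.47, fold 1.19), with an unadjusted p of 0.0349 and an adjusted p of 0.9999. Without dox it was 0.21 (SE 0.10, 95% interval -0.02 to 0.43) and the groups overlapped. With the block, the intervals in edgeR were 0.05 to 0.44 with dox (adjusted p = 0.9919) and 0.01 to 0.41 without dox (adjusted p = 0.9387). Pros1 was higher in NLS-N-VEGF cells in 3 of 3 same-labelled pairs with dox and in 3 of 3 without. The dox effects were 0.02 (95% interval -0.21 to 0.24) and -0.02 (95% interval -0.24 to 0.21) on the log2 scale, narrow enough to leave out a doubling in either direction.

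**Figure D4:**
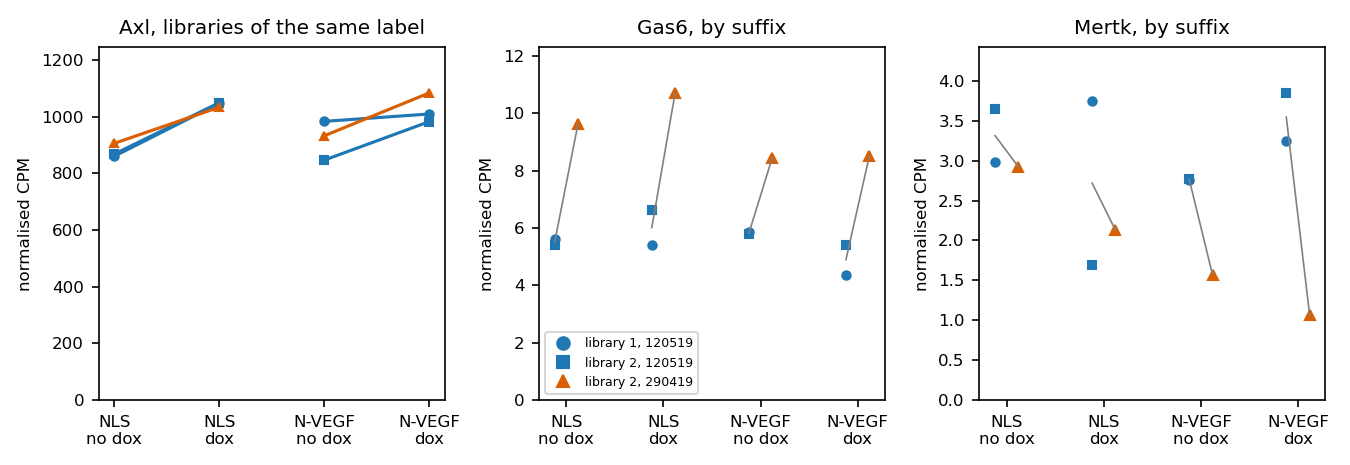
Normalised CPM with axes from 0. The left panel joins libraries of the same label without and with dox for Axl, and all 6 lines go up. The other panels set the 2 libraries of suffix _120519 (blue) against that of suffix _290419 (orange) within each group for Gas6 and Mertk, with grey lines from the mean of the former to the latter. The Gas6 triangle was the highest point of each group, and the Mertk triangle was below the mean of the other two in each.

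With group in the model, edgeR called 45.6% of all genes tested between suffix _290419 and suffix _120519. It called 2 of the 5 members, which is no more than this background. Gas6 was higher in suffix _290419, with 8.44, 8.49, 9.62 and 10.7 CPM in the 4 libraries of suffix _290419 against 4.37 to 6.62 CPM with a median of 5.52 CPM in the 8 of suffix _120519. The ranges did not overlap. Gas6 differed by 0.74 on the log2 scale (SE 0.10, 95% interval 0.53 to 0.95, fold 1.68, adjusted p = 2.1e-05 in edgeR). The library of suffix _290419 stood above the mean of the other two of its group by 0.80 and 0.83 in NLS-N-VEGF cells without and with dox and by 0.54 and 0.80 in N-VEGF cells.

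Mertk was lower in suffix _290419, at 2.92, 2.13, 1.57 and 1.07 CPM against 1.69 to 3.85 CPM with a median of 3.12 CPM in suffix _120519. These ranges overlapped. The difference was -0.70 on the log2 scale (SE 0.23, 95% interval -1.20 to -0.21, fold 0.614, adjusted p = 0.0218 in edgeR). Within the groups it was -0.18 and -0.35 in NLS-N-VEGF cells without and with dox and -0.82 and -1.73 in N-VEGF cells. The call rested on single libraries. The adjusted p in edgeR was 0.148 (log2 difference -0.45) without the suffix _290419 library of N-VEGF cells with dox, 0.0596 (-0.68) without that of N-VEGF cells without dox, and 0.0549 (-0.61) without library 1 of suffix _120519 of NLS-N-VEGF cells with dox. Mertk is also a macrophage gene, and the 8 macrophage markers summed to 8.75 to 14.5 CPM in suffix _120519 and 10.2 to 12.6 CPM in suffix _290419. Within this sum the markers moved in opposite directions. Csf1r, the receptor for macrophage colony-stimulating factor, was lower in suffix _290419, as Mertk was, at 4.63 to 6.52 CPM against 5.15 to 10.1 CPM (fold 0.743, adjusted p = 0.0144 in edgeR). Cd68, a lysosomal protein, was higher, at 5.02 to 5.38 CPM against 2.43 to 3.52 CPM (fold 1.77, adjusted p = 6.061e-05 in edgeR), and Aif1 was not called. Of the exonic bases of Csf1r 15.12% overlap Hmgxb3 on the opposite strand. The part of macrophage RNA in the Mertk difference was not tested.

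Axl, Tyro3 and Pros1 were not called between the suffixes, and their libraries overlapped. The log2 differences were 0.05 (95% interval -0.07 to 0.17), -0.05 (95% interval -0.22 to 0.11) and 0.06 (95% interval -0.09 to 0.20) in edgeR. The balance of the ligands moved with Gas6, and the Pros1 to Gas6 ratio per length was 3.22 to 4.92 in suffix _120519 and 2.2 to 2.94 in suffix _290419. The Axl to Gas6 ratio was 74.1 to 116.9 and 47.6 to 64.6 in the same order. Since every group held 2 libraries of the one and 1 of the other suffix, these differences were balanced over the groups.

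Around the ligands, the genes of the vitamin K dependent Gla pathway were mostly not called with dox. In a dox comparison within 1 population, edgeR called at most 0.125% of all genes with or without the block. Of 17 such genes 8 passed the filter. The most abundant per length was Calu, which encodes the calcium-binding protein calumenin, at 165 CPM per kilobase. Mgp, which encodes the matrix Gla protein, an inhibitor of calcification, fell with dox in both populations in the fit with the replicate block. From the lowest to the highest library, Mgp in NLS-N-VEGF cells measured 18.0, 24.5 and 25.6 CPM untreated and 8.82, 9.68 and 11.9 CPM treated. N-VEGF cells measured 17.5, 26.4 and 29.0 CPM untreated and 8.56, 14.3 and 14.9 CPM treated, and treated and untreated libraries did not overlap in either population. With the block, edgeR gave -1.13 (SE 0.17, adjusted p = 0.00492) and -0.94 (SE 0.16, adjusted p = 0.0241) on the log2 scale, and without the block -1.16 and -0.94 with adjusted p of 0.6058 and 0.9999. Between the suffixes Mgp was the 1 gene of the 8 called, beside 45.6% of all genes, at -0.40 (adjusted p = 0.0161).

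Downstream of the receptors, 24 of 24 signalling genes passed the filter and Akt1, a survival kinase, was the most abundant per length at 98.4 CPM per kilobase. Src, a cytoplasmic tyrosine kinase that receptor kinases engage, was the 1 gene of the 24 called with dox, and it rose in both populations in the fit with the block. From the lowest to the highest library, Src in NLS-N-VEGF cells measured 45.1, 47.6 and 48.1 CPM untreated and 67.0, 68.5 and 72.2 CPM treated. N-VEGF cells measured 44.3, 49.9 and 61.5 CPM untreated and 71.6, 72.5 and 75.5 CPM treated. The groups with and without dox did not overlap in either population. With the block, edgeR gave 0.56 (SE 0.09, adjusted p = 0.00869) and 0.50 (SE 0.09, adjusted p = 0.0241) on the log2 scale, and without it 0.56 and 0.50 with adjusted p of 0.5254 and 0.8938. In the contrast averaged over both populations Src was called in either fit, at 0.53 with an adjusted p of 0.0224 in edgeR without the block. That contrast called 0.0588% of all genes without the block and 0.566% with it. The paper names Src among the genes induced by N-VEGF shuttling, which it drew from these same libraries. The Src values here are not independent of that choice. The paper left out genes also induced by dox in N-VEGF cells, whereas here Src rose in both populations. The median log2 dox effect of the 24 genes was -0.01 for NLS-N-VEGF cells and -0.08 for N-VEGF cells, beside 0 over all genes in both.

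Between the suffixes 2 of the 24 signalling genes were higher and 10 lower in suffix _290419. Those with the lowest adjusted p were lower there. They were Socs3, an inhibitor of cytokine signalling, at -0.66 on the log2 scale, and Cblb at -0.55, a ubiquitin ligase that turns off kinases and is linked to TAM receptors. The others were Dock1 at -0.41 and the adaptor Nck2 at -0.45, and all 4 had an SE between 0.05 and 0.08. The list's median was -0.07 beside 0.01 over all genes. The 12 calls of 24 stand beside the background of 45.6%.

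The proteases and inhibitors of receptor shedding, by which Axl and Mertk lose their outer part, gave 0 calls among 10 genes in the 5 comparisons of groups in edgeR with or without the block. These comparisons called 0% to 0.125% of all genes, so the 0 calls say little about the shedding genes in particular. Psenen, a subunit of gamma-secretase, was the most abundant per length at 36.4 CPM per kilobase. Adam10, a sheddase of Axl, had 30.9 CPM per kilobase and log2 dox effects of 0.24 (SE 0.10, adjusted p = 0.9998) and 0.09 (SE 0.10, adjusted p = 0.9999) in edgeR. Between the suffixes 1 of 10 was higher and 3 were lower in suffix _290419, a share below the 45.6% of all genes. The higher gene was Rhbdf2, which helps to mature Adam17, by 0.62 (SE 0.12). The lower ones were Timp3, a secreted inhibitor of Adam10 and Adam17, at -1.09 (SE 0.12), Adam17 at -0.25 (SE 0.05) and Adam10 at -0.18 (SE 0.05). Of the exonic bases of Timp3 21.28% overlap Syn3 on the opposite strand, so its counts are uncertain without a stated counting strand.

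Genes that put phosphatidylserine on the cell surface or take it back gave 0 calls among 8 tested of 12 in the group comparisons in edgeR with or without the block. As 0% to 0.125% of all genes were called there, the 0 calls say little about these 8 genes in particular. Tmem30a, a flippase subunit, was the most abundant per length at 32.0 CPM per kilobase. Between the suffixes 3 of the 8 were called, a share below the 45.6% of all genes. They were lower in suffix _290419, namely the flippases Atp8b2 at -0.21 (SE 0.06) and Atp11a at -0.17 (SE 0.06) and the scramblase-related Plscr1 at -0.20 (SE 0.06) on the log2 scale.

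Of 20 other genes of phosphatidylserine recognition and the uptake of dying cells, 13 passed the filter. The list holds receptors and bridging proteins for phosphatidylserine, and also Calr, Cd47, Lrp1 and Gulp1, which are of neither kind. Of the 13 genes 0 were called in the group comparisons in edgeR with or without the block, beside 0% to 0.125% of all genes. Calr, which encodes calreticulin, an "eat me" signal on dying cells, was the most abundant per length at 435 CPM per kilobase. Between the suffixes 3 of 13 were higher and 6 lower in suffix _290419, beside the background of 45.6%. Havcr2, which encodes the phosphatidylserine receptor TIM-3, was higher by a fold of 3.24, with 5.53 to 9.09 CPM in suffix _290419 and 1.32 to 3.64 CPM (median 1.88) in suffix _120519, without overlap. Calr was higher by 0.41 (SE 0.07), Cd300lb lower at -0.44 (SE 0.06) and Edil3, a bridging protein for integrins, lower at -0.48 (SE 0.06). Of the 3 other TAM ligands proposed, Lgals3, which encodes galectin-3, was the 1 that passed the filter, at 391 CPM per kilobase, and it was higher by 0.19 in suffix _290419 (SE 0.07, adjusted p = 0.0435 in edgeR).

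Among the 30 other receptor tyrosine kinases tested, 0 were called by edgeR in the 5 comparisons of groups with or without the block, beside 0% to 0.125% of all genes. Between the suffixes 4 were higher and 15 lower in suffix _290419, beside 45.6% of all genes called. Pdgfra, which is also a fibroblast marker, was lower at -1.32 (SE 0.09), with 92.7 to 168 CPM in suffix _290419 and 275 to 427 CPM (median 358) in suffix _120519, without overlap. It was also the 1 gene of this list that the averaged dox contrast called with the block, at -0.49 (SE 0.08, adjusted p = 0.00419 in edgeR), beside 0.566% of all genes. Egfr was lower at -1.35 (SE 0.14), Ephb4 lower at -0.69 (SE 0.08) and Styk1 higher by 1.54 (SE 0.16). The median log2 difference of the 30 receptors between the suffixes was -0.21, beside 0.01 over all genes. The marker counts that follow stand beside the same 45.6%. Of the 8 fibroblast markers 2 were higher and 4 lower in suffix _290419, with Thy1 higher by 0.53 (SE 0.05), Col3a1 lower at -1.22 (SE 0.13) and Fn1 lower at -0.55 (SE 0.08), while Vim was the most abundant per length at 913 CPM per kilobase. Of the macrophage markers 3 passed the filter, Cd68 being higher by 0.83 (SE 0.12) and Csf1r lower at -0.43 (SE 0.13). Of the endothelial markers 3 passed and Tie1 was lower at -1.30 (SE 0.43). Tie1 had only 1 to 18 counts a library, which reaches below the floor of 3 counts. Its ranges of 0.0669 to 0.473 CPM in suffix _290419 and 0.188 to 1.03 CPM in suffix _120519 overlapped. Of the epithelial markers 2 passed and Krt14, at 14 to 38 counts a library, was higher by 0.73 (SE 0.19). The endothelial marker with the highest level was Cdh5, at 0.590 CPM per kilobase. Whether these shifts in other genes take part in the Gas6 and Mertk differences was not tested.

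The genes whose log2 CPM followed Axl most closely over the 12 libraries, among 8918 with a mean of at least 10 CPM, were Pacsin2 (Pearson's r 0.945), Loxl4 (0.922) and Src (0.885). Over the 8 libraries of suffix _120519 the values were 0.96, 0.924 and 0.926. Loxl4, a lysyl oxidase-like enzyme, averaged 13.3 ± 0.898 CPM in untreated and 20.6 ± 2.48 CPM in treated NLS-N-VEGF libraries, and 15.4 ± 1.99 and 21.4 ± 4.36 CPM in those of N-VEGF cells (SD, n = 3). Those closest to Gas6 were Foxm1 (0.958), Gm4316 (0.942) and Haus7 (0.942), with values of 0.736, 0.667 and 0.775 over the 8 libraries of suffix _120519. These are descriptions over libraries that share their labels and suffix, and for Gas6 the values dropped when the suffix was held constant. Among the members themselves the highest values were 0.55 between Axl and Tyro3 and -0.62 between Mertk and Gas6 over 12 libraries, and 0.65 and -0.67 over the 8.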

How the data were processed

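The authors trimmed single reads with Trim Galore, aligned them to GRCm38 with TopHat2 2.1.0 and Bowtie2 2.2.6, and counted reads per gene with HTSeq 0.6.1. They deposited the raw counts per gene for 12 TruSeq libraries, which were used as deposited. The counting strand is not given in the sources used here. Counts, not the authors' own comparisons, were tested with the quasi-likelihood F test of edgeR 4.0.16 in R 4.3.3, with filterByExpr (13608 genes kept), TMM scaling, 1 mean per group over all 12 libraries and Benjamini-Hochberg adjustment over all genes tested at 0.05. The suffixes were compared with group in the model. Normalised CPM are counts scaled by library total and TMM factor. CPM per kilobase divides by the union of exons in GENCODE M21, whose positions of the 5 members equal those deposited and which held 54409 of 54446 Ensembl genes.

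Libraries that shared a label resembled each other across groups. Deviations from the group means over 12057 genes correlated by 0.40 to 0.83 in all 18 same-labelled pairs from different groups (mean 0.59). In the 36 other pairs the mean was -0.25, with values from -0.76 to 0.68. Within suffix _120519 the difference of libraries 1 and 2 correlated between groups by a mean of 0.06 (-0.07 to 0.30). The labels thus paired the libraries by suffix, and the numbers 1 and 2 were not shown to mark pairs. Counts of same-labelled pairs depend on this matching. A fit with the label as a block was run, and it lowered the common biological coefficient of variation from 15.53% to 7.86%. Its value stands beside a result where the call or count moved. No 2 libraries of a group agreed within sampling noise (chi-square per degree of freedom 1.76 to 76.07). Alternatives were DESeq2 1.42.0, RLE scaling, other filters, the suffix as a term, subsets of libraries and leaving out each library. The procedure was tested on simulated data. The floor covers counting error only. The dox effect averaged over both populations was added after the data were seen.

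The members and gene lists were chosen with earlier results of these data known. The 5 members were always named. From each other list the text names up to 4 genes with the lowest adjusted p under 0.05 in any of the 6 comparisons in the fit without or with the block and the most abundant by CPM per kilobase, and for Axl and Gas6 the 3 genes with the highest Pearson correlation among those with a mean of at least 10 CPM. Receptor neighbours in level were named too. All 8 macrophage markers were named after their values were seen.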

Additional observations from a re-analysis of the deposited data

How the results depend on the processing

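In the 5 comparisons of groups none of the 5 genes was called under any alternative tried, and the replicate block changed no call of theirs. Counts of genes called moved with the fit. For dox in NLS-N-VEGF cells, 3 in the reported fit, they were 17 with the block, 12 with DESeq2, 42 with DESeq2 and the block, 53 without the filter, 15 with the suffix as a term, 109 with suffix _120519 alone and 0 to 3 leaving out 1 library. For dox in N-VEGF cells, 5 in the reported fit, they were 15, 8, 31, 36, 13, 16 and 1 to 7 in the same order. The difference of the dox effects, 0 otherwise, gave 1 without the filter and 4 with suffix _120519 alone. With dox the populations, 0 in the reported fit, gave 2 with the block, 4 with DESeq2 and the block, 9 without the filter, 2 with the suffix as a term and 11 with suffix _120519 alone, and without dox 10 without the filter and 5 with suffix _120519 alone. The averaged dox contrast, 8 in the reported fit, gave 77 with the block, 21 with DESeq2 and 102 with DESeq2 and the block, where Axl, at 0.20, passed. In it Gas6, at 0 in the reported fit, was -0.01, 0 and -0.02 and Pros1 0 with the block.

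With suffix _120519 alone the signs turned for dox in N-VEGF cells of Tyro3 (-0.05) and Pros1 (0.09), for the Pros1 difference (-0.02) and for Gas6 between populations without dox (-0.08), and the suffix difference of Tyro3 was 0 over libraries numbered 2. None of these was called.

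Leaving out 1 library turned signs of differences near 0. Gas6 ranged from -0.19 to 0.45 and -0.45 to 0.05 for dox in NLS-N-VEGF and N-VEGF cells, -0.05 to 0.60 for their difference, and -0.02 to 0.63 and -0.28 to 0.22 between populations with and without dox. Mertk ranged from -0.13 to 0.59 for dox in N-VEGF cells, -0.52 to 0.23 between populations with dox and -0.93 to -0.45 between suffixes, where 3 of 12 such fits lost the call. Tyro3 ranged from -0.06 to 0.11 for dox in N-VEGF cells and -0.08 to 0.08 between populations with dox, and Axl from 0 to 0.07 there. Pros1 ranged from -0.03 to 0.06 and -0.10 to 0.08 for dox, -0.06 to 0.12 for the difference and -0.04 to 0.12 between suffixes. Axl for dox in NLS-N-VEGF cells stayed between 0.23 and 0.26, and Gas6 between suffixes between 0.70 and 0.81. The causes were not tested. At 16 to 71 reads a library, depth limits Mertk most.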
